A study of Homo sapiens with 8 samples.

Results

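G2, spindle and mitosis genes encode the proteins that take a cell from the end of DNA replication through chromosome segregation to division. They were taken here from a list of 54 genes grouped by function. Its 8 roles ran from the cyclins and kinases of mitotic entry to the nuclear lamina. The list was chosen with earlier results of these data known, so its counts of calls are not an independent test. A gene was measured where the array held a probe set annotated with that gene's symbol and no other, and 51 of the 54 had one, out of 8226 genes named in this way and 12558 probe sets tested. PRC1, TACC3 and CENPA had none and were not analysed here. Where several probe sets measured a gene, the one with the highest mean over all 8 arrays stood for it.

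The study asked how human prostate cancer cells respond to acute Notch activation. PC3 is an androgen-independent line derived from a metastasis in bone, and LNCaP an androgen-responsive line derived from one in a lymph node. Each line expressed either activated Notch1, a receptor form that needs no ligand to signal, or green fluorescent protein (GFP) as control, and each of the 4 groups had 2 Affymetrix U95Av2 arrays, which measure a transcript with a set of short oligonucleotide probes. All values are log2 expression, so a difference of 1 is a 2-fold change. The vector, the time after its delivery and any selection are not given for these arrays in the sources used here. The methods mention 2 chips for each sample, so the spread between replicates may be technical and the p-values measure only that spread. In RNA from whole cultures, more dividing cells and more of a transcript per cell cannot be told apart.

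As background, most of these genes are silent in quiescent cells and in G1 and are transcribed late in the cell cycle. The MuvB protein complex binds their promoters at the CHR element (cell cycle genes homology region), where it represses together with RB-related proteins and E2F factors and later activates together with B-MYB and FOXM1, and the trimeric factor NF-Y binds nearby CCAAT boxes. CDK1 bound to cyclin B then drives the cell into mitosis, motor proteins build the spindle, and the spindle checkpoint holds back the anaphase promoting complex, a ubiquitin ligase, until every chromosome is attached.

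HES1, a direct Notch target used as a check of the labels, read 7.92 and 8.08 on the PC3 GFP arrays, 10.51 and 10.61 with Notch1 in PC3, 8.41 and 8.47 on the LNCaP GFP arrays and 11.22 and 11.23 with Notch1 in LNCaP. NOTCH1 itself was not analysed here. HES1 rose in both lines, by 2.56 in PC3 and 2.78 in LNCaP. Log2 values of arrays of the same group correlated at 0.995 to 0.998 across probe sets, those of the same line with and without Notch1 at 0.98 to 0.991, and those of different lines at 0.877 to 0.894. Of the 8 LNCaP identity markers 4 were measured, and all 4 (KLK3, KLK2, TMPRSS2 and ACP3) fell in LNCaP with Notch1, their summed log2 level being 35.9 with GFP and 30.9 with Notch1. Of the 7 PC3 markers, 5 rose in PC3 and 1, ANXA1, rose in LNCaP, where the summed level of the list was 31.0 with GFP and 34.8 with Notch1 against 68.3 in PC3 GFP, and caveolin genes CAV1 and CAV2 stayed near their GFP level (log2 differences 0.04 and -0.02). None of 6 leukocyte and 5 stromal markers was called in either line, and their summed log2 levels ran from 31.6 to 33.8 and from 25.2 to 28.4 over the 4 groups. The stromal sums hide opposite differences between the lines. LUM averaged 0.95 in PC3 GFP and 6.39 in LNCaP GFP, and COL1A2 averaged 7.81 and 3.90. The 3′ minus 5′ signal of the control probe sets for ACTB, which is smaller in more intact RNA, averaged 0.625 in LNCaP GFP and 0.45 in LNCaP Notch1, and that of GAPDH 0.56 and 0.38. In PC3 GFP and PC3 Notch1 the ACTB signal averaged 0.38 and 0.33 and the GAPDH signal 0.02 and -0.06. The part of these marker and integrity shifts in the values of the mitosis genes, within or between lines, was not tested.

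The promoter sequences were searched for the elements named above, which late cell cycle genes often share. RefSeq windows of 300 bases (GRCh38.p14), from 250 bases before to 50 after the transcription start, were held for 44 of the 51 genes, and where a gene had several starts, as 13 did, the outermost was used. The windows printed here are those of 8 genes of mitotic entry, checkpoint, anaphase, spindle and chromosome structure and, for contrast, LBR, the gene with the smallest difference in LNCaP. Each window is written 5′ to 3′ on the strand of its gene, and the capitals mark matches, on either strand, to the CHR cores TTTGAA and TTCGAA and to CCAAT. The windows lie at chr10:60778081-60778380 (+ strand) for CDK1, chr5:69166900-69167199 (+ strand) for CCNB1, chr15:59104896-59105195 (+ strand) for CCNB2, chr16:23678639-23678938 (+ strand) for PLK1, chr1:43358731-43359030 (+ strand) for CDC20, chr2:110678014-110678313 (- strand) for BUB1, chr15:69414099-69414398 (+ strand) for KIF23, chr17:40417847-40418146 (- strand) for TOP2A and chr1:225428772-225429071 (- strand) for LBR.
CDK1: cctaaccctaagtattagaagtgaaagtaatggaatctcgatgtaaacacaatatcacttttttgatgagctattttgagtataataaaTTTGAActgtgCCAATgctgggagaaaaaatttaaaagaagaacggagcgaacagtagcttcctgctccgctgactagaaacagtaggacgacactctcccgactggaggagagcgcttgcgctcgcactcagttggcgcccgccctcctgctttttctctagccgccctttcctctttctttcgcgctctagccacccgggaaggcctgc
CCNB1: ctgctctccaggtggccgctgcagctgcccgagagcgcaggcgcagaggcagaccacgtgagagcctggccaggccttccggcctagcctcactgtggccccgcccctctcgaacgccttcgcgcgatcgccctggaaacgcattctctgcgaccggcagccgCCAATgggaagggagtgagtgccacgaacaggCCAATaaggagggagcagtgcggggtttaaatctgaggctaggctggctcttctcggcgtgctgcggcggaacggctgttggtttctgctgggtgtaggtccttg
CCNB2: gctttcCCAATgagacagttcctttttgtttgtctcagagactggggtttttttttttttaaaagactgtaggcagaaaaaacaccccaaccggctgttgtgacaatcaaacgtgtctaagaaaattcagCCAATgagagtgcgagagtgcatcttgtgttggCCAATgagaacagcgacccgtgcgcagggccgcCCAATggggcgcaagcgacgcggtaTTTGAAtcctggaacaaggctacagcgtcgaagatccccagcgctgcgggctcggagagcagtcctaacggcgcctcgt
PLK1: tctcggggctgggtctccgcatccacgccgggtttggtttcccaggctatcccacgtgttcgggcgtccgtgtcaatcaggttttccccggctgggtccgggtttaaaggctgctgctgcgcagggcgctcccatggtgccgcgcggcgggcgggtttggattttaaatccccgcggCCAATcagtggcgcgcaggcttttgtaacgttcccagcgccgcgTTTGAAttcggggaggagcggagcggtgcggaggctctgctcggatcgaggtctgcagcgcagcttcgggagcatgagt
CDC20: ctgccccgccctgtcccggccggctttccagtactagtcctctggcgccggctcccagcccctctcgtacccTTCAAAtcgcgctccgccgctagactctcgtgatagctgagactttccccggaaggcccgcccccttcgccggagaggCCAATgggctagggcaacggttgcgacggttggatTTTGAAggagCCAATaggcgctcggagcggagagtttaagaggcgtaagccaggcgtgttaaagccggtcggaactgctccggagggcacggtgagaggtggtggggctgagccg
BUB1: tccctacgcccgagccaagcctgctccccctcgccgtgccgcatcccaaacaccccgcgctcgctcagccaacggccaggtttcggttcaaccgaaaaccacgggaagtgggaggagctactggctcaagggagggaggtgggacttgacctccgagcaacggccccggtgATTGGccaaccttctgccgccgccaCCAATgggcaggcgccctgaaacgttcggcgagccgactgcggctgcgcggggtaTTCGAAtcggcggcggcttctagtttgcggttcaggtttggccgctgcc
KIF23: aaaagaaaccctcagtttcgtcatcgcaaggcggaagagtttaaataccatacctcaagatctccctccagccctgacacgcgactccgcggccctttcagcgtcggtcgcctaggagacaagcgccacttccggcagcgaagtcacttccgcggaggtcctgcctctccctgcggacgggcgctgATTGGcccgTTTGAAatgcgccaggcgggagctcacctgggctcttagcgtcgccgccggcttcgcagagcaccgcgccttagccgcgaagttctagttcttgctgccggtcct
TOP2A: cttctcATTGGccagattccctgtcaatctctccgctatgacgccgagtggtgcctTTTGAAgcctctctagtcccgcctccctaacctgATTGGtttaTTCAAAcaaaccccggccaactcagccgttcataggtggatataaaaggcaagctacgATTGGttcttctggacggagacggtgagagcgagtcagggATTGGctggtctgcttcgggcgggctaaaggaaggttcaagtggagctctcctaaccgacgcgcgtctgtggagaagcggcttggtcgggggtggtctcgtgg
LBR: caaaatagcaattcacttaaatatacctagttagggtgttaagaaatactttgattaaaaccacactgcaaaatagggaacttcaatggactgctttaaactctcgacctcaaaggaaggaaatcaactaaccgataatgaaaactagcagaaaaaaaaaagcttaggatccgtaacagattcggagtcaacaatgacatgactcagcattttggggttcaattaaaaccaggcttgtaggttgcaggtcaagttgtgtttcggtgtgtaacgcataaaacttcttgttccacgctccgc

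A CHR core, TTTGAA or TTCGAA, was found in the windows of 28 of the 44 genes (63.6%), against 12.4% of the 6618 genes of the array with a window and 16.7% of all 27305 genes of the table. CCAAT was found in 30 of the 44 (68.2%), against 36.7% and 35.7%. Both stood together in 23 windows (52.3%), against 5.18% of the genes of the array. The matches were not spread evenly. Of the 28 genes with a CHR core, 20 had one within 50 bases of the start, with a median position of -29 over all matches. Of the 30 genes with CCAAT, 24 had one within 100 bases upstream of the start, with a median of -85. Positions were not computed for the other genes of the array, so this placement only describes the listed genes. In the printed windows, CCNB2 and PLK1 have the core at -29, downstream of their CCAAT boxes. KIF23 has the core just downstream of its single CCAAT. BUB1 has TTCGAA just past its start, LBR holds none of these letters, and CCNB1 holds CCAAT without a CHR core. CDK1 has both motifs further upstream, in the window of its outermost start. A match is a description of the letters only, and the absence of one says only that these letters are not in this window.

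**Figure D1:**
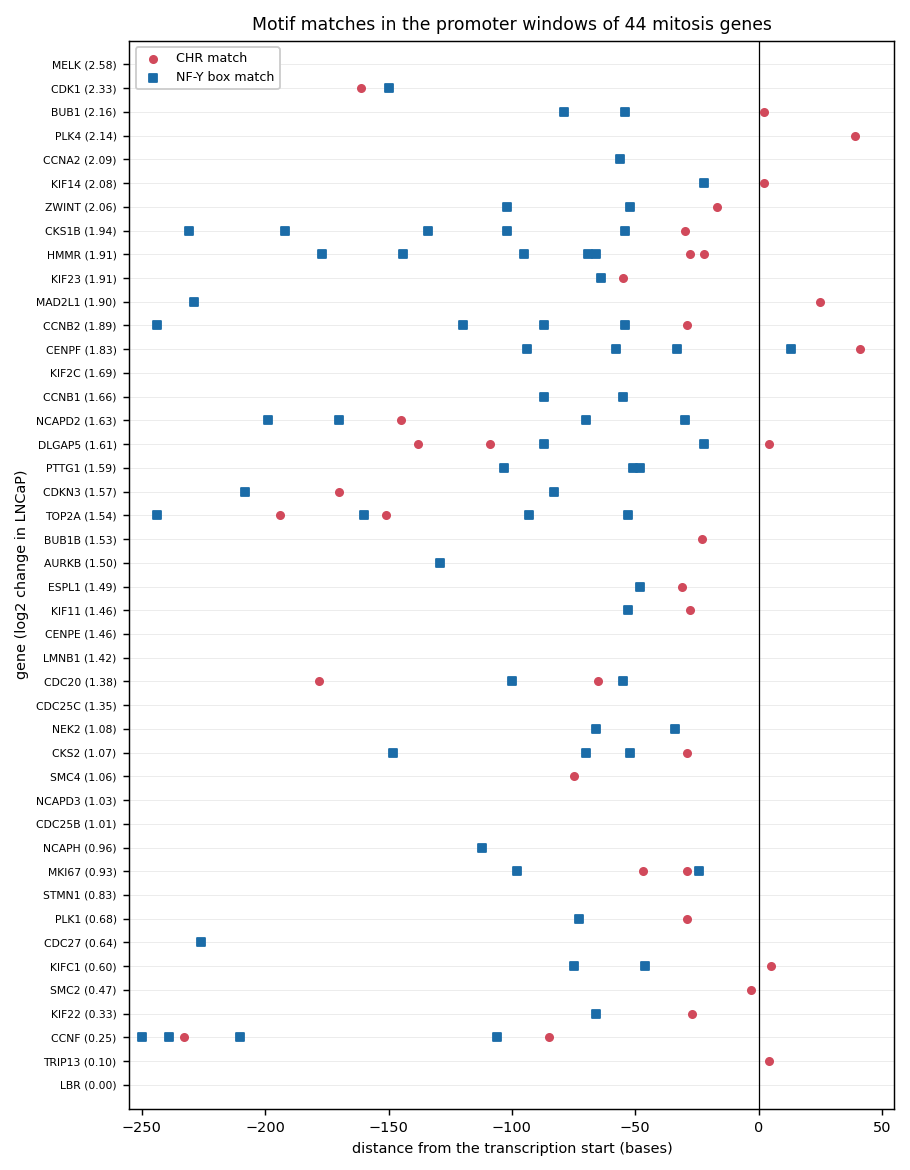
Matches to the CHR cores (circles) and to the NF-Y box CCAAT (squares) in the promoter windows of 44 mitosis genes, by distance in bases from the transcription start, with genes ordered by their log2 change in LNCaP (in brackets). CHR matches gather near the start and CCAAT matches mostly within 100 bases upstream, and genes with and without matches occur from the top to the bottom of the order.

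By response in LNCaP, the motif shares were as follows. Among the 37 genes with a window that were called higher in LNCaP, 23 held a CHR core (62.2%) and 27 held CCAAT (73.0%). Among the 7 with a window that were not called, 5 held a CHR core (71.4%) and 3 held CCAAT (42.9%). MELK and LMNB1, with LNCaP changes of 2.58 and 1.42, held neither, and TRIP13, at 0.10, held a core near its start. AURKA, BUB3, TTK, UBE2C, TPX2, BIRC5 and FOXM1 had no window in the table.

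In LNCaP, transcripts of most of the 51 measured genes were higher with activated Notch1 than with GFP. Of the 51 genes, 42 rose, 0 fell and 9 did not pass the test (adjusted p under 0.05 over all probe sets), and 37 of the 42 rose at least 2-fold. Across all probe sets 8.01% were called higher, 9.32% lower and 2.25% higher by at least 2-fold. The median change of the group was 1.50 on the log2 scale against 0.04 over all probe sets. The median level of the 51 genes was 6.66 and 6.69 on the LNCaP GFP arrays and 8.33 and 8.12 on the Notch1 arrays. For 46 genes both Notch1 arrays lay above both GFP arrays, and for the other 5 (BUB3, TRIP13, KIF22, BIRC5 and LBR) they overlapped. The share of all probe sets separated in this way was not counted, so these numbers only describe the listed genes. Changes that were called ran from 0.60 for KIFC1 to 2.58 for MELK, or 1.52-fold to 5.99-fold.

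In PC3 most of the same genes read close to their control level. CDC25B rose and LMNB1 fell, 49 of 51 did not pass the test, and the group's median difference was -0.05 against -0.08 over all probe sets. Across all probe sets 4.19% were called higher and 2.01% lower, beside 1.96% of the 51 genes in each direction. With the replicate number as a block, MAD2L1 was also called higher (0.40, adjusted p = 0.0362) and KIFC1 lower (-0.53, adjusted p = 0.0449). At an unadjusted p under 0.05 there were 5 genes higher and 6 lower, and the share of all probe sets at that threshold was not counted. The median level of the group was 8.00 and 7.98 on the PC3 GFP arrays and 7.77 on each of the Notch1 arrays. The arrays overlapped for 27 genes, the Notch1 arrays lay above for 8 and below for 16. Here too the share of all probe sets was not counted.

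**Figure D2:**
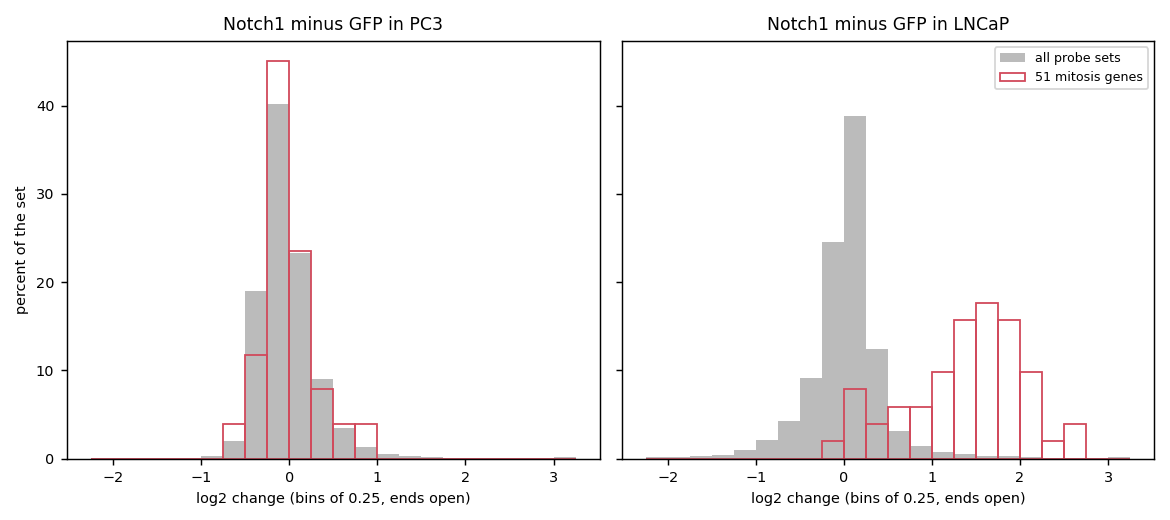
Share of probe sets (percent of the set, y axis) by log2 change with activated Notch1 in bins of 0.25 (x axis), in PC3 (left) and LNCaP (right). Grey bars are all 12558 probe sets and red outlines the 51 mitosis genes, whose median was -0.05 in PC3 and 1.50 in LNCaP.

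The difference between the lines was tested directly as the LNCaP change minus the PC3 change. It was called higher for 41 of the 51 genes and lower for 0, with a median of 1.58 against 0.12 over all probe sets, of which 6.49% were called higher and 7.67% lower. The LNCaP change was thus larger than the PC3 change for 41 genes beyond the spread between arrays. With each array centred on its median, 39 were called higher (BUB1B and MAD2L1 lost the call), and all probe sets split into 549 higher and 1255 lower in place of 815 and 963. The excess of BUB1B was also not called with any single array left out except PC3 GFP replicate 1 or LNCaP GFP replicate 2 (0.73 to 1.09, adjusted p = 0.0741 to 0.132). That of MAD2L1 was not called with any single array left out except those 2 or LNCaP Notch1 replicate 1 (1.12 to 1.81, adjusted p = 0.0521 to 0.173). The excess of BUB1 was not called without either PC3 Notch1 array or either LNCaP Notch1 array (1.34 to 1.57, adjusted p = 0.0579 to 0.0944). That of STMN1 was lost without any 1 of 4 arrays (PC3 Notch1 replicate 1, LNCaP GFP replicate 2 or either LNCaP Notch1 array, 0.63 to 0.68, adjusted p = 0.0529 to 0.0809). Without LNCaP Notch1 replicate 1 the excesses of KIFC1, NCAPH and PLK1 were not called (adjusted p = 0.0667, 0.0559 and 0.0533), nor were those of KIFC1 and NCAPH without PC3 Notch1 replicate 1 (0.0638 and 0.058), of PLK1 without PC3 Notch1 replicate 2 (0.054) or of NEK2 without LNCaP Notch1 replicate 2 (0.05). Raising every value under log2 5, a level under which 31.9 to 37.6% of all probe sets lay on each array, to log2 5 left 28 such calls and 33 of the 42 calls in LNCaP. Of the calls between the lines that were lost, those of PLK1 (0.90), BUB1B (1.03), CDC20 (1.58), KIFC1 (1.14) and NCAPH (1.06) had the same difference as before, and their adjusted p values were 0.0529 to 0.211.

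**Figure D3:**
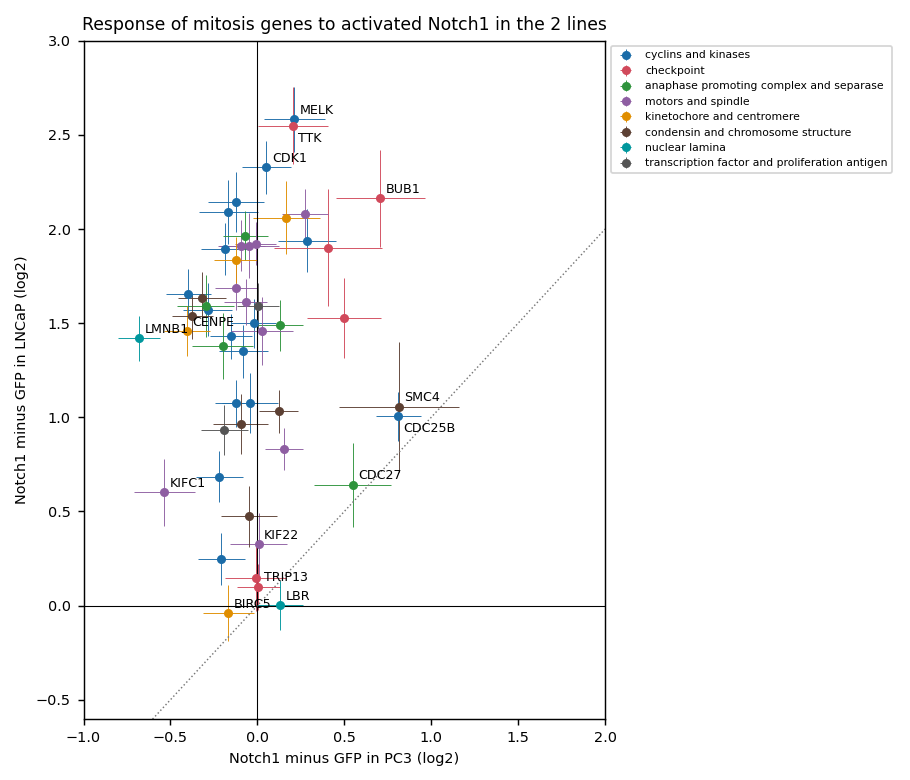
Log2 change with activated Notch1 in PC3 (x axis) against LNCaP (y axis) for the 51 mitosis genes, coloured by role, each point with its SE in both lines from 2 arrays per group. Most points stand between 1 and 2.6 on the LNCaP axis and within 0.5 of 0 on the PC3 axis, and the dotted line marks equal change in both lines.

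Of the 16 cyclins and kinases of mitotic entry, 15 rose in LNCaP, with a median of 1.54, and 1 rose in PC3. CDK1, the kinase that triggers mitosis, read 10.11 and 10.24 on the PC3 GFP arrays, 10.21 and 10.25 with Notch1 in PC3, 7.45 and 7.39 on the LNCaP GFP arrays and 9.56 and 9.94 with Notch1 in LNCaP. The LNCaP GFP arrays were the lowest of the 8, and with Notch1 the LNCaP arrays came close to the PC3 arrays without reaching them. CDK1 rose 5.02-fold in LNCaP, by 2.33 ± 0.14 (SE, adjusted p = 2.5e-06), and differed by 0.05 in PC3 (adjusted p = 0.84), an excess over PC3 of 2.28 ± 0.20 (adjusted p = 7.82e-05). Its cyclin partners rose with it in LNCaP: CCNA2 by 2.09, CCNB1 by 1.66 and CCNB2 by 1.89. In PC3 the same 3 genes differed by -0.17, -0.40 and -0.19, none of them called. CKS1B and CKS2, small CDK-binding proteins, rose by 1.94 and 1.07 in LNCaP, and CDKN3, a phosphatase that acts on CDKs, by 1.57.

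MELK, a kinase of dividing and progenitor cells, had the largest change of the group. It read 4.76 and 5.36 on the PC3 GFP arrays, 5.25 and 5.29 with Notch1 in PC3, 2.49 and 2.48 on the LNCaP GFP arrays and 5.13 and 5.00 with Notch1 in LNCaP. The LNCaP Notch1 arrays fell within the range of the PC3 arrays, and the LNCaP GFP arrays lay far below all others. The LNCaP change was 2.58 ± 0.17 (SE, adjusted p = 4.93e-06), and the difference between the lines 2.37 (adjusted p = 0.000185). All of these levels are low: with values under log2 5 raised to 5 its LNCaP call was lost and the difference between the lines turned to -0.02. Among the other mitotic kinases, PLK4, which starts centriole duplication, rose by 2.14 in LNCaP, AURKB by 1.50, AURKA by 1.43 and NEK2, a centrosome kinase, by 1.08. PLK1, a kinase used at many steps of mitosis, rose by less, 0.68 ± 0.14 (SE, adjusted p = 0.00566).

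CDC25B and CDC25C are phosphatases that remove the inhibitory phosphates from CDK1. CDC25B read 9.15 and 8.97 on the PC3 GFP arrays, 9.99 and 9.75 with Notch1 in PC3, 7.56 and 7.46 on the LNCaP GFP arrays and 8.57 and 8.47 with Notch1 in LNCaP. No 2 of the 4 groups overlapped, and in each line the Notch1 arrays were the higher. It rose in both, by 0.81 ± 0.13 (SE, adjusted p = 0.00493) in PC3 and 1.01 ± 0.13 (SE, adjusted p = 0.000407) in LNCaP, with a difference between the lines of 0.20 (adjusted p = 0.479). The PC3 call was lost without Notch1 replicate 1 (log2 0.69, adjusted p = 0.0693) and with values under log2 5 raised to 5, at the same 0.81 (adjusted p = 0.0512). CDC25C rose by 1.35 in LNCaP and differed by -0.08 in PC3. CCNF, cyclin F, a substrate receptor of an SCF ubiquitin ligase, was the member of this role that did not pass the test in LNCaP. It read 6.53 and 6.20 on the PC3 GFP arrays, 6.14 and 6.18 with Notch1 in PC3, 6.78 and 6.80 on the LNCaP GFP arrays and 7.13 and 6.95 with Notch1 in LNCaP. Its LNCaP Notch1 arrays were above the GFP arrays by a small margin, at 0.25 ± 0.14 (SE, adjusted p = 0.273).

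**Figure D4:**
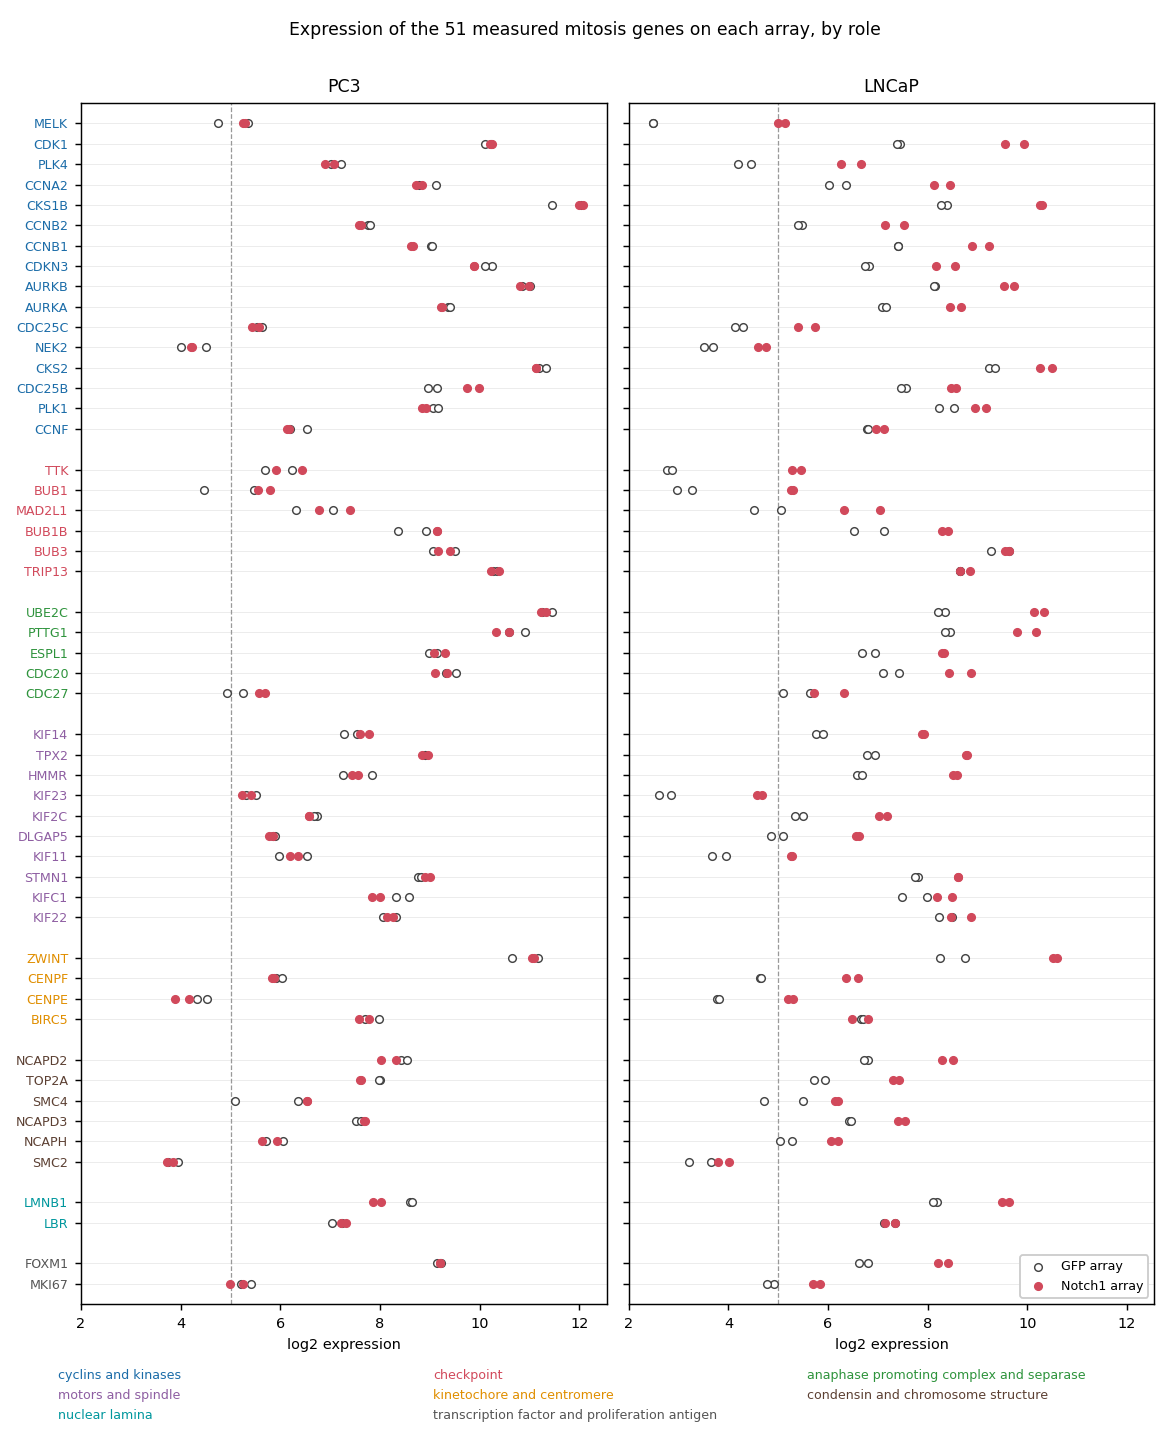
Log2 expression of each of the 51 measured mitosis genes on each array (x axis), in PC3 (left) and LNCaP (right), with GFP arrays as open circles and Notch1 arrays as red circles. Gene names are coloured by role and sorted within a role by the LNCaP change, and the dashed line marks log2 5. In LNCaP the red and open circles are apart for 46 genes, and in PC3 they overlap for 27. The same counts were not made over all probe sets.

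Of the 6 genes of the spindle checkpoint role, 4 rose in LNCaP and 0 were called in PC3. TTK (MPS1), the kinase that starts the checkpoint, read 5.68 and 6.24 on the PC3 GFP arrays, 5.91 and 6.43 with Notch1 in PC3, 2.78 and 2.87 on the LNCaP GFP arrays and 5.46 and 5.28 with Notch1 in LNCaP. The LNCaP GFP arrays were again far below, and the Notch1 arrays came close to the lowest PC3 array. TTK rose by 2.55 ± 0.20 (SE, adjusted p = 1.4e-05) in LNCaP, an excess over PC3 of 2.34 (adjusted p = 0.000556). BUB1, a checkpoint kinase at the kinetochore, read 4.47 and 5.46 on the PC3 GFP arrays, 5.79 and 5.56 with Notch1 in PC3, 2.96 and 3.26 on the LNCaP GFP arrays and 5.25 and 5.30 with Notch1 in LNCaP. The PC3 GFP arrays of BUB1 lay 0.99 apart, with replicate 1 the lower, and the LNCaP Notch1 arrays lay within the PC3 range. BUB1 rose by 2.16 ± 0.26 (SE, adjusted p = 0.000228) in LNCaP and differed by 0.71 in PC3 (adjusted p = 0.128). BUB1B (BUBR1) and MAD2L1 (MAD2), which sequester the activator of the anaphase promoting complex, rose by 1.53 and 1.90. With values under log2 5 raised to 5, TTK and BUB1 lost their LNCaP calls at 0.37 and 0.27, and MAD2L1 was not called at 1.65 (adjusted p = 0.0847). The difference between the lines of BUB1 then turned to -0.17, and that of TTK was 0.17 and not called.

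BUB3 and TRIP13, the remaining checkpoint genes, were not called. BUB3, which recruits the BUB kinases, read 9.07 and 9.51 on the PC3 GFP arrays, 9.16 and 9.40 with Notch1 in PC3, 9.27 and 9.63 on the LNCaP GFP arrays and 9.63 and 9.56 with Notch1 in LNCaP. TRIP13, an ATPase that remodels MAD2, read 10.27 and 10.34 on the PC3 GFP arrays, 10.39 and 10.23 with Notch1 in PC3, 8.65 and 8.65 on the LNCaP GFP arrays and 8.86 and 8.64 with Notch1 in LNCaP. For both, the LNCaP Notch1 arrays overlapped the GFP arrays, and the differences were 0.15 ± 0.17 and 0.10 ± 0.12. The LNCaP minus PC3 difference of TRIP13 was -1.66 with GFP and -1.56 with Notch1.

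Of the 5 genes of the anaphase promoting complex and separase, 4 rose in LNCaP and 0 were called in PC3. UBE2C, the ubiquitin-conjugating enzyme of the complex, read 11.45 and 11.24 on the PC3 GFP arrays, 11.33 and 11.23 with Notch1 in PC3, 8.35 and 8.20 on the LNCaP GFP arrays and 10.34 and 10.14 with Notch1 in LNCaP. The LNCaP arrays moved up with Notch1 but stayed below all 4 PC3 arrays, which lay close together. UBE2C rose 3.91-fold, by 1.97 ± 0.13 (SE, adjusted p = 4.56e-06), with a difference between lines of 2.03 (adjusted p = 8.9e-05). PTTG1, securin, the inhibitor of separase, read 10.91 and 10.60 on the PC3 GFP arrays, 10.58 and 10.33 with Notch1 in PC3, 8.44 and 8.34 on the LNCaP GFP arrays and 10.18 and 9.79 with Notch1 in LNCaP. It too was lowest on the LNCaP GFP arrays, rose by 1.59 ± 0.16 (SE, adjusted p = 8.46e-05) in LNCaP and differed by -0.30 in PC3. ESPL1, separase itself, which cuts cohesin, and CDC20, the activator of the complex, rose by 1.49 and 1.38 in LNCaP.

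CDC27, a core subunit of the complex, was not called in either line. It read 4.92 and 5.24 on the PC3 GFP arrays, 5.70 and 5.56 with Notch1 in PC3, 5.10 and 5.65 on the LNCaP GFP arrays and 5.71 and 6.32 with Notch1 in LNCaP. The Notch1 arrays were above the GFP arrays in both lines, by 0.55 in PC3 (adjusted p = 0.166) and 0.64 in LNCaP (adjusted p = 0.0761), and neither passed the test. With the replicate number as a block the LNCaP difference of 0.64 was called (adjusted p = 0.0215). Without LNCaP GFP replicate 2 or LNCaP Notch1 replicate 1 the LNCaP difference did pass (0.92 and 0.94, adjusted p = 0.0257 and 0.0386). Of 6 further subunits and activators measured (ANAPC5, ANAPC10, ANAPC13, CDC16, CDC23 and FZR1), 0 were called in either line, with LNCaP differences from -0.59 for ANAPC13 to 0.27 for CDC23.

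Of the 10 motor and spindle genes, 9 rose in LNCaP, with a median of 1.65, and 0 were called in PC3. KIF14, a kinesin of the midzone and midbody, read 7.28 and 7.55 on the PC3 GFP arrays, 7.77 and 7.60 with Notch1 in PC3, 5.75 and 5.91 on the LNCaP GFP arrays and 7.89 and 7.93 with Notch1 in LNCaP. With Notch1 the LNCaP arrays stood above every PC3 array. KIF14 rose 4.23-fold, by 2.08 ± 0.13 (SE, adjusted p = 4.16e-06). TPX2, which activates Aurora A and nucleates spindle microtubules, read 8.91 and 8.91 on the PC3 GFP arrays, 8.96 and 8.84 with Notch1 in PC3, 6.78 and 6.94 on the LNCaP GFP arrays and 8.78 and 8.78 with Notch1 in LNCaP. Here the PC3 arrays lay within a narrow band, and the LNCaP Notch1 arrays came up to just below it. TPX2 rose by 1.92 ± 0.12 (SE, adjusted p = 2.56e-06), an excess over PC3 of 1.93 (adjusted p = 7.82e-05).

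The other spindle genes that rose in LNCaP were the kinesins KIF23 (1.91), KIF2C (1.69), KIF11 (1.46) and KIFC1 (0.60), the spindle proteins HMMR (1.91) and DLGAP5 (1.61), and STMN1, stathmin, which destabilises microtubules (0.83). In PC3 these 7 genes differed by -0.53 for KIFC1 to 0.15 for STMN1. KIF22, a kinesin that binds chromosome arms, was not called: it read 8.32 and 8.05 on the PC3 GFP arrays, 8.26 and 8.13 with Notch1 in PC3, 8.48 and 8.22 on the LNCaP GFP arrays and 8.88 and 8.48 with Notch1 in LNCaP. Its LNCaP arrays overlapped, with a difference of 0.33 ± 0.16. KIFC1 and PLK1 had the smallest called changes in LNCaP, and of the 42 calls these were the ones lost under an alternative other than the treatment of low values. Without LNCaP GFP replicate 2, KIFC1 differed by 0.36 (adjusted p = 0.304) and PLK1 by 0.54 (adjusted p = 0.0604). Without LNCaP Notch1 replicate 1 the values were 0.46 (adjusted p = 0.251) and 0.58 (adjusted p = 0.0589). KIFC1 also lost its call without LNCaP Notch1 replicate 2 (0.74, adjusted p = 0.069), without either PC3 Notch1 array (0.60, adjusted p = 0.0634) and with median-centred arrays (0.54, adjusted p = 0.056).

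Of the 4 kinetochore and centromere genes, 3 rose in LNCaP and 0 were called in PC3. CENPF, a large kinetochore protein of G2 and mitosis, read 5.92 and 6.03 on the PC3 GFP arrays, 5.86 and 5.84 with Notch1 in PC3, 4.64 and 4.65 on the LNCaP GFP arrays and 6.60 and 6.36 with Notch1 in LNCaP. The LNCaP Notch1 arrays were the highest of the 8 and the LNCaP GFP arrays the lowest. CENPF rose by 1.83 ± 0.12 (SE, adjusted p = 4.56e-06) in LNCaP. ZWINT, which links the kinetochore to the checkpoint, read 10.65 and 11.16 on the PC3 GFP arrays, 11.05 and 11.10 with Notch1 in PC3, 8.25 and 8.75 on the LNCaP GFP arrays and 10.51 and 10.60 with Notch1 in LNCaP. The LNCaP Notch1 arrays stood just below the PC3 range, and replicate 1 was the lower in both GFP groups. ZWINT rose 4.17-fold, by 2.06 ± 0.19 (SE, adjusted p = 4.09e-05), and CENPE, the kinetochore motor, rose by 1.46 in LNCaP and differed by -0.40 in PC3.

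BIRC5, survivin, a subunit of the chromosomal passenger complex with AURKB, was not called in LNCaP. It read 7.71 and 7.98 on the PC3 GFP arrays, 7.57 and 7.77 with Notch1 in PC3, 6.66 and 6.71 on the LNCaP GFP arrays and 6.49 and 6.81 with Notch1 in LNCaP. The LNCaP arrays overlapped, and the difference was -0.04 ± 0.15. A dimmer BIRC5 probe set did rise in LNCaP, by 0.66 (adjusted p = 0.00616), so the probe sets of this gene disagreed.

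Of the 6 genes of condensin and chromosome structure, 4 rose in LNCaP, with a median of 1.04, and 0 were called in PC3. NCAPD2, a subunit of condensin I, which compacts mitotic chromosomes, read 8.43 and 8.55 on the PC3 GFP arrays, 8.32 and 8.02 with Notch1 in PC3, 6.79 and 6.72 on the LNCaP GFP arrays and 8.50 and 8.29 with Notch1 in LNCaP. The LNCaP Notch1 arrays lay within the PC3 range, and the LNCaP GFP arrays well below it. NCAPD2 rose by 1.63 ± 0.14 (SE, adjusted p = 1.93e-05). TOP2A, the topoisomerase that untangles sister chromatids, read 8.00 and 7.97 on the PC3 GFP arrays, 7.61 and 7.62 with Notch1 in PC3, 5.93 and 5.71 on the LNCaP GFP arrays and 7.30 and 7.42 with Notch1 in LNCaP. By this probe set no 2 groups overlapped, with the order PC3 GFP, PC3 Notch1, LNCaP Notch1 and LNCaP GFP. TOP2A rose by 1.54 ± 0.12 (SE, adjusted p = 1.28e-05) in LNCaP, and its PC3 difference of -0.37 had an adjusted p of 0.0959. Its dimmer probe sets differed by 0.16 and 0.04 in PC3, so the direction there depends on the probe set.

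NCAPH of condensin I and NCAPD3 of condensin II rose by 0.96 and 1.03 in LNCaP. The ATPase subunits shared by both condensins, SMC2 and SMC4, were not called. SMC2 read 3.74 and 3.94 on the PC3 GFP arrays, 3.85 and 3.73 with Notch1 in PC3, 3.65 and 3.20 on the LNCaP GFP arrays and 3.79 and 4.01 with Notch1 in LNCaP. SMC4 read 5.10 and 6.36 on the PC3 GFP arrays, 6.54 and 6.55 with Notch1 in PC3, 4.72 and 5.50 on the LNCaP GFP arrays and 6.15 and 6.19 with Notch1 in LNCaP. The Notch1 arrays of both genes stood above the GFP arrays in LNCaP, by 0.47 ± 0.16 (SE, adjusted p = 0.0723) for SMC2 and 1.06 ± 0.34 (SE, adjusted p = 0.0608) for SMC4. Replicate 1 of SMC4 was the lower in both GFP groups, by 1.27 in PC3 and 0.78 in LNCaP, and these were the widest gaps between replicates among the 51 genes in those groups. With the replicate number as a block SMC4 was called in LNCaP (1.06, adjusted p = 0.0191). With either PC3 GFP array left out, SMC4 was called in LNCaP at an unchanged 1.06 (adjusted p = 0.00345), and without LNCaP GFP replicate 2 at 1.45 (adjusted p = 0.0215). Without LNCaP GFP replicate 1 SMC2 was called too (0.70, adjusted p = 0.0198).

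LMNB1 and LBR, lamin B1 and the lamin B receptor of the nuclear envelope, gave different readings. LMNB1 read 8.60 and 8.63 on the PC3 GFP arrays, 8.02 and 7.85 with Notch1 in PC3, 8.19 and 8.10 on the LNCaP GFP arrays and 9.63 and 9.50 with Notch1 in LNCaP. The PC3 Notch1 arrays were below their controls and the LNCaP Notch1 arrays above theirs, and the latter were the highest of the 8. LMNB1 fell by 0.68 in PC3 (SE 0.12, adjusted p = 0.00799) and rose by 1.42 ± 0.12 (SE, adjusted p = 1.94e-05) in LNCaP. The lines thus moved in opposite directions, with a difference of 2.10 ± 0.17 (adjusted p = 5.6e-05), but the fall in PC3 lost its call without Notch1 replicate 2 (-0.60, adjusted p = 0.0975). LBR read 7.05 and 7.23 on the PC3 GFP arrays, 7.22 and 7.31 with Notch1 in PC3, 7.12 and 7.35 on the LNCaP GFP arrays and 7.14 and 7.34 with Notch1 in LNCaP. All 4 groups of LBR overlapped, and the LNCaP difference was 0.00 ± 0.13.

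FOXM1, the forkhead factor that activates many of these genes in G2, read 9.23 and 9.15 on the PC3 GFP arrays, 9.20 and 9.20 with Notch1 in PC3, 6.81 and 6.63 on the LNCaP GFP arrays and 8.41 and 8.21 with Notch1 in LNCaP. The PC3 arrays lay together, and the LNCaP Notch1 arrays stood between them and the LNCaP GFP arrays. FOXM1 rose 3.01-fold in LNCaP, by 1.59 ± 0.12 (SE, adjusted p = 1.22e-05), against 0.00 in PC3. MKI67, the Ki-67 antigen used as a marker of proliferation, read 5.40 and 5.21 on the PC3 GFP arrays, 4.99 and 5.24 with Notch1 in PC3, 4.91 and 4.77 on the LNCaP GFP arrays and 5.70 and 5.85 with Notch1 in LNCaP. It was highest on the LNCaP Notch1 arrays, rose by 0.93 ± 0.13 (SE, adjusted p = 0.000807) in LNCaP and differed by -0.19 in PC3. A dimmer MKI67 probe set also rose in LNCaP. It read 4.65 and 4.47 with Notch1 there, below every PC3 array (5.15 to 5.30), so the ranking depends on the probe set.

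The mitosis genes also differed between the lines on the control arrays. Between LNCaP GFP and PC3 GFP, 45 of the 51 genes were lower in LNCaP and 1, CCNF, was higher, with a median difference of -1.66 against 0.22 over all probe sets. Across all probe sets 18.5% were called lower and 40.3% higher. The widest gaps were those of CKS1B (-3.42), CDKN3 (-3.40), TTK (-3.14) and UBE2C (-3.07), and that of TTK was -0.96 with values under log2 5 raised to 5. These levels carry a limit of scale, since no source says whether both lines were normalized together and the LNCaP arrays had the higher median over all probe sets (6.28 to 6.36 against 5.95 to 6.01). With arrays centred on their medians the group's difference was -1.94, and CCNF was no longer called. All probe sets then split into 3323 higher and 3852 lower in place of 5067 and 2319. The 3′ minus 5′ GAPDH signal also differed, at 0.56 in LNCaP GFP against 0.02 in PC3 GFP, and its part was not tested.

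Under activated Notch1 the gap between the lines was narrower. Between LNCaP Notch1 and PC3 Notch1, 22 genes were lower in LNCaP, 11 were higher and 18 were not called, and the median was -0.26 against 0.37 over all probe sets, of which 18.5% were called lower and 52.2% higher. CKS1B (-1.76), TRIP13 (-1.56) and CDKN3 (-1.54) were the lowest relative to PC3, and LMNB1 (1.63), CENPE (1.22) and HMMR (1.05) stood highest above PC3. With the replicate block MAD2L1 (-0.41), KIFC1 (0.42) and NCAPH (0.34) were called as well. The count of genes higher in LNCaP depended on the scale: it was 5 with median-centred arrays and 7 after quantile normalization of the 8 arrays, with medians of -0.64 and -0.41. The control and Notch1 comparisons of the lines rest on separate arrays, but each shares its LNCaP arrays with the Notch1 change in LNCaP.

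**Figure D5:**
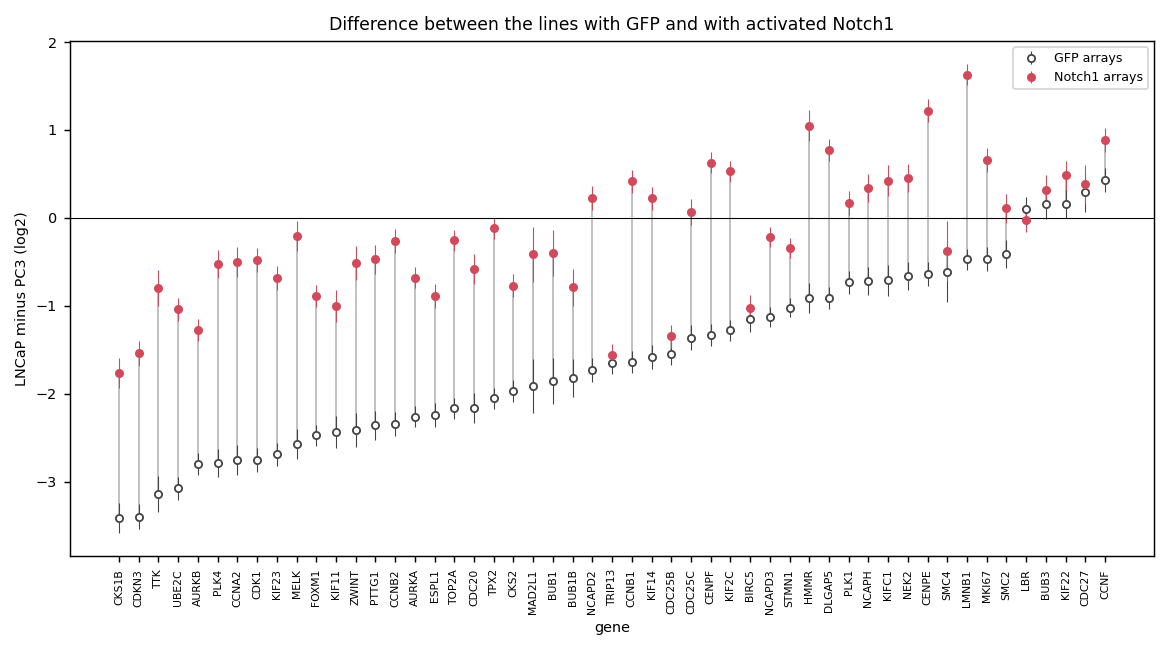
LNCaP minus PC3 (log2, y axis) for each of the 51 mitosis genes (x axis), on the GFP arrays (open circles) and on the Notch1 arrays (red circles), with SEs from 2 arrays per group. The open circles lie below 0 for most genes (median -1.66) and the red circles nearer to 0 (median -0.26).

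Other probe sets gave a second reading for 12 of the genes, with 17 probe sets in all. In LNCaP 16 of the 17 rose, and in PC3 1 rose and 1 fell. Those of CDK1 rose by 2.07 and 1.96, those of TOP2A by 2.07 and 2.15, that of CCNA2 by 2.14 and that of MKI67 by 1.41. For 3 of the 9 genes not called in LNCaP a dimmer probe set was called: CCNF (0.46 and 0.61), BUB3 (0.65) and BIRC5, as above. The exception was a MAD2L1 probe set that stayed at log2 4.06 and 4.05 on average in both LNCaP groups, while the remaining probe set of MAD2L1 rose by 2.24. In PC3, a dim CDK1 probe set rose by 0.76 and a KIFC1 probe set fell by 0.90, where the brighter probe sets differed by 0.05 and -0.53 and were not called.

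A further list of 79 genes of mitosis and its regulation, of which 55 were measured, showed fewer calls. It too was chosen with earlier results of these data known. In LNCaP 12 of the 55 rose (21.8%) and 6 fell (10.9%), with a median of 0.10, beside 8.01% and 9.32% of all probe sets, and in PC3 2 rose (KNTC1 by 0.47 and NFYB by 0.64) and 1 fell (RCC1, the exchange factor of Ran, by 0.73). Of 12 regulators of mitotic transcription, MYBL2 (B-MYB), the partner of MuvB at the CHR, rose in LNCaP by 2.17 ± 0.15 (SE, adjusted p = 5.72e-06), from 5.66 and 5.56 to 7.98 and 7.58. In PC3 it read 8.02 and 7.82 with GFP and 8.00 and 7.88 with Notch1. E2F5 and RBL2 (p130), the repressor and pocket protein of quiescence, fell by 1.07 and 0.80 in LNCaP, RBL2 with an adjusted p of 0.0224. The other 9 regulators were not called in LNCaP. Among them E2F4 differed by -0.06, RBL1 by 0.28, LIN37 by 0.17, RBBP4 by 0.24 and TFDP1 by -0.29.

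Of 21 further spindle, kinetochore and centrosome genes, 6 rose and 1 fell in LNCaP. NDC80, which holds microtubules at the kinetochore, rose by 2.07, and SPAG5, astrin, by 1.90, with PC3 differences of 0.00 and -0.39. Of 9 cohesin genes, 2 rose and 1 fell in LNCaP: RAD21 rose by 0.79 and WAPL, which releases cohesin, fell by 0.71. Among 6 genes of CDK1 control, 2 rose and 2 fell in LNCaP. CDC25A rose by 0.74 and PKMYT1 by 0.48. Cyclin H (CCNH), of the CDK-activating kinase, fell by 0.85 and MNAT1 by 0.58. KIF20B, the only cytokinesis gene measured, rose by 0.64 at a level under log2 5.

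Low signal and single arrays set the limits of these results. On the LNCaP GFP arrays 14 of the 51 genes averaged under log2 5, against 3 with Notch1 and 4 in PC3 GFP, and 13 of the 14 were called higher. Raising such values to 5 ended the LNCaP calls of NEK2, MELK, BUB1, TTK, KIF11 and KIF23, with changes of 0.00 to 0.37. The calls of CDC25C, MAD2L1 and KIFC1 ended too, but at changes of 0.57, 1.65 and 0.60, the last the same as before. In PC3 GFP, replicate 1 was lower than replicate 2 for 35 of the 51 genes and by over 0.5 for 10. The same counts were not made over all probe sets. Without PC3 GFP replicate 2, the PC3 differences of CKS1B, MELK, BUB1, BUB1B and SMC4 were 0.57, 0.52, 1.20, 0.78 and 1.45. With all arrays they were 0.29, 0.21, 0.71, 0.50 and 0.82. These 5 genes were picked by that fit, in which more of all probe sets were called in both directions.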

How the data were processed

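RNA of PC3 and LNCaP cells with GFP or activated Notch1 was hybridised to 8 Affymetrix U95Av2 arrays. Per the labels and methods, the authors ran RMA on the raw files, a method that subtracts background, brings arrays to a shared distribution and merges each set's probes into a single value, and used limma, with no version stated. The deposited log2 values were used as they stood. Of 12625 probe sets, 67 control probe sets were left out. The platform annotation gave 10943 of the remaining 12558 probe sets 1 gene symbol, 545 several and 1070 none, and only the first kind was named.

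A linear model with 1 mean per group was fitted to all 8 arrays with limma 3.58.1 in R 4.3.3 (lmFit and eBayes, 4 residual and 6.37 prior degrees of freedom), with two-sided tests and Benjamini-Hochberg adjustment over all 12558 probe sets. A call is an adjusted p under 0.05. The number of arrays, 2 per group, limits the precision. Promoter windows were searched on both strands with Python 3.11.15.

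The members, roles and gene lists were chosen with earlier results of these data known. Values on every array are given for the pair of members with the largest LNCaP change in each role, for those called in PC3 and for those not called in LNCaP. Median centring, quantile normalization, 2 treatments of low values, gene means, fits within a line, a variance trend, a replicate block and leaving out each array were tried as alternatives. The labels number the arrays 1 and 2 in every group and do not say what a number shares. Deviations of same-numbered arrays correlated at 0.124 to 0.545 between groups across all probe sets and at 0.254 to 0.731 across the members.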

Additional observations from a re-analysis of the deposited data

Results flagged for a closer look

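The change with activated Notch1 differed between the lines, by the test of the difference itself, for 41 of the 51 genes. Among the genes shown array by array, the LNCaP change exceeded the PC3 change (log2) by 2.28 for CDK1, 2.37 for MELK, 1.46 for BUB1, 2.34 for TTK and 2.03 for UBE2C. The excess was 1.89 for PTTG1, 1.81 for KIF14, 1.93 for TPX2, 1.96 for CENPF and 1.89 for ZWINT. It was 1.95 for NCAPD2, 1.91 for TOP2A, 2.10 for LMNB1, 1.59 for FOXM1 and 1.12 for MKI67. The call of BUB1 was lost without any 1 of 4 arrays (1.34 to 1.57, adjusted p = 0.0579 to 0.0944). With values under log2 5 raised to 5, the excess was 0.17 for TTK, -0.02 for MELK and -0.17 for BUB1, none of them called. By the probe sets that stood for the 51 genes, only LMNB1 was called in opposite directions, lower in PC3 and higher in LNCaP. A dimmer KIFC1 probe set was also called lower in PC3 (-0.90) and higher in LNCaP (1.30). RCC1, from the further list, was called in the same directions (-0.73 and 0.42).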

How the results depend on the processing

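The count of genes that rose in LNCaP stayed at 41 to 44 under every alternative but one (of 51 tested, or 49 with dim probe sets left out): with values under log2 5 raised to log2 5 it was 33, with a median of 1.38. Leaving out 1 array at a time gave 41 to 43 calls with medians of 1.41 to 1.54. The difference between the lines kept 35 to 41 calls without 1 array (medians 1.48 to 1.70) and 28 with the floor (median 1.20). Its median was 1.48 with median centring and 1.72 with quantile normalization. With the floor it reversed for MELK (-0.024) and BUB1 (-0.17), whose LNCaP GFP values lie under the floor. In PC3 the count of genes that rose ran from 0 to 6 without 1 array, and was 0 with the floor and 2 with the replicate block; that of genes that fell ran from 0 to 1, and was 2 with gene means and 2 with the replicate block. The replicate block changed no call of a member beyond those given with the genes, and moved no other count by over 1.5 times. For LNCaP GFP against PC3 GFP, genes called higher were 0 with median centring, quantile normalization and the floor, and 0 to 1 without 1 array; the median was -1.94, -1.84 and -1.25, -1.73 with dim probe sets left out, and -1.72 to -1.54 without 1 array. For LNCaP Notch1 against PC3 Notch1, 5 genes were higher with median centring and 7 with quantile normalization, with medians of -0.64 and -0.41, and -0.34 with dim probe sets left out; quantile normalization reversed CDC25C (-0.37) and NEK2 (-0.048). The cause of the shifts with scaling was not tested.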

Other observations

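The remaining motifs searched in the 44 promoter windows were near their share elsewhere. The E2F-type letters TTTGGCG or TTTCCCG were in 5 windows (11.4%), against 8.43% of the genes of the array. The RBPJ-type core TGGGAA, the letters recognised by the DNA-binding partner of Notch, was in 12 windows (27.3%), against 21.5%. Of the CHR cores, TTCGAA was in 1 of the 37 windows of genes called higher in LNCaP and in 3 of the 7 windows of genes not called. Different motifs shared a base in 3 cases: CCAAT with TGGGAA in CCNB1 and in CCNB2, and TTTGAA with CCAAT in MKI67.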
